A study of Oryza sativa with 6 samples.

Results

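SalT and R40C1 are 2 rice genes named for stress-induced lectins or lectin-like proteins. Their probe sets were found by name: every probe set assigned to 1 gene whose symbol or synonyms in the reference gene table include salT or R40C1. These were 2 of the 17905 genes with a probe set of their own, read by 3 of the 57258 rice probe sets on the array. SalT (LOC4326471) had 2, called here by the endings of their identifiers: the a_at set, whose ending marks transcripts of one gene, and the x_at set, whose ending marks probes that may also bind other transcripts. R40C1 (LOC4332715) had 1. All 3 passed the filter on low signal. RNA came from leaves of 2-week-old seedlings of the rice variety Zhonghua 11, either nontransgenic or transgenic for antisense-OsPDCD5, whose target is named after programmed cell death. Seedlings of each genotype were taken untreated, or moved to dishes of half-strength Murashige and Skoog medium holding 200 mM NaCl and taken 20 min or 3 h later. Each of the 6 groups was 1 Affymetrix array from 10 plants, with no replicate array and no group transferred without salt. The construct's promoter and how many transgenic lines were used are not given in the sources used here, and the signal of OsPDCD5 was not analysed here.

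Lectins are proteins that bind sugars. SalT encodes a jacalin-related lectin that binds mannose. Its transcript was first described in rice roots and leaf sheaths under salt, drought and abscisic acid, a hormone that rises when water is short. R40C1 belongs to the R40 family, whose members carry ricin-B-type lectin domains, and was first described as an abscisic acid- and salt-responsive transcript of rice roots. Both are commonly read as late targets of the abscisic acid and osmotic stress pathway. In that pathway, PYL receptors release SAPK kinases, the kinases activate bZIP transcription factors, and these switch on protective genes such as the RAB16 dehydrins.

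The labelled tissue was checked first, since both transcripts are known from roots. The leaf markers RCA, CAB2R and RBCS, genes of photosynthesis, were measured on every array, with a summed MAS5 signal of 90574 to 124640. The 5 root markers measured, Lsi1, Lsi2, IRT1, HKT1;5 and NRT2.3, summed to 773 to 1273, and 3 of them passed the filter on low signal. Signals of different probe sets have no common scale, so the sums of the 2 lists are not compared with each other. By gene, Lsi1 had signals of 537 to 1101 over the 6 arrays and IRT1 of 18.3 to 155. HKT1;5 had 34.8 to 154 and NRT2.3 had 2.2 to 71.5. The silicon transporter gene Lsi2 lay between 1.0 and 1.5 on every array. The summed root signal was lower at 3 h than before treatment in both genotypes, at 773 against 1109 in nontransgenic and 1071 against 1273 in transgenic leaves. Lsi1 made up most of each sum, and the transgenic sum was lowest at 20 min, at 871. Of the 3 genes past the filter, 3 were lower at 3 h in nontransgenic leaves, and 2 were lower and 1 higher in transgenic leaves. None of these 3 h changes passed the threshold in the limma fit given below. In these bulk samples, fewer cells of a type and less RNA per cell cannot be told apart.

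SalT was low before treatment and at 20 min and very high at 3 h in both genotypes. On the a_at set, nontransgenic leaves had a MAS5 signal of 107 before treatment, 85.3 at 20 min and 9396 at 3 h. Antisense leaves had 175, 42.8 and 8605 at the same stages. Both 3 h arrays thus stood far above the other 4, with no overlap. At any distance, both 3 h arrays were above the other 4 for 12% of all probe sets tested. The x_at set gave 72.8, 61.0 and 6394 in nontransgenic leaves. It gave 80.7, 35.4 and 6121 in antisense leaves. Both probe sets read the same RNA, so they are not independent measurements. Their log2 signals correlated at r = 0.997 over the 6 arrays, with no replicates among the points.

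**Figure D1:**
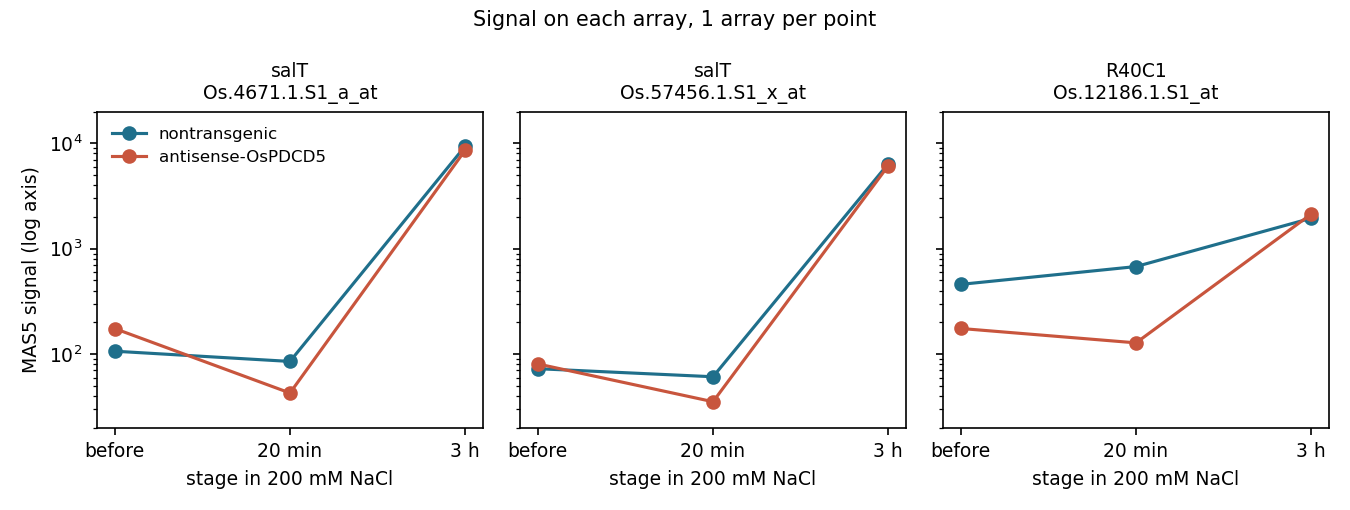
MAS5 signal (log axis) of both salT probe sets and of R40C1 by stage (before, 20 min, 3 h of 200 mM NaCl), with 1 point per array and lines joining the arrays of one genotype. SalT did not exceed 175 before treatment or at 20 min and reached 6121 or more at 3 h in both genotypes, while R40C1 started lower in antisense leaves and reached 1945 and 2134 at 3 h.

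As linear ratios, salT on the a_at set was 88.2-fold higher at 3 h than before in nontransgenic leaves and 49.2-fold higher in antisense leaves. On the x_at set the ratios were 87.9-fold and 75.8-fold. Changes were also estimated with limma on log2(signal + 16), with genotype and stage as additive terms. The SE measures how far arrays depart from additivity, with variance shared between probe sets of similar signal, and is no spread between replicates. In that fit the x_at set rose by 6.08 ± 0.23 (log2 change ± SE, limma adjusted p = 0.00103), and the a_at set rose by 5.88 ± 0.32 (adjusted p = 0.00198). Of the 28629 probe sets tested, 3.44% were called higher and 2.58% lower at 3 h. The calls of both probe sets were lost when the variance was not allowed to follow signal strength (adjusted p = 0.0609), a setting that left 0 calls among all probe sets.

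Ranked by size, the salT probe sets held the 1st and 2nd largest 3 h rises of the 28629 tested, in the fit and in each genotype taken alone. Against 20 min, where salT was lowest, the rise was larger still. It was 110-fold in nontransgenic and 201-fold in antisense leaves on the a_at set, and 105-fold and 173-fold on the x_at set. The fitted 3 h minus 20 min changes were 6.87 ± 0.32 and 6.64 ± 0.23 (limma adjusted p = 0.00135 and 5.85e-04), where 4.45% of probe sets were called higher. By signal, the a_at set moved from above 64.5% of all rice probe sets before treatment to above 98.5% at 3 h in nontransgenic leaves.

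**Figure D2:**
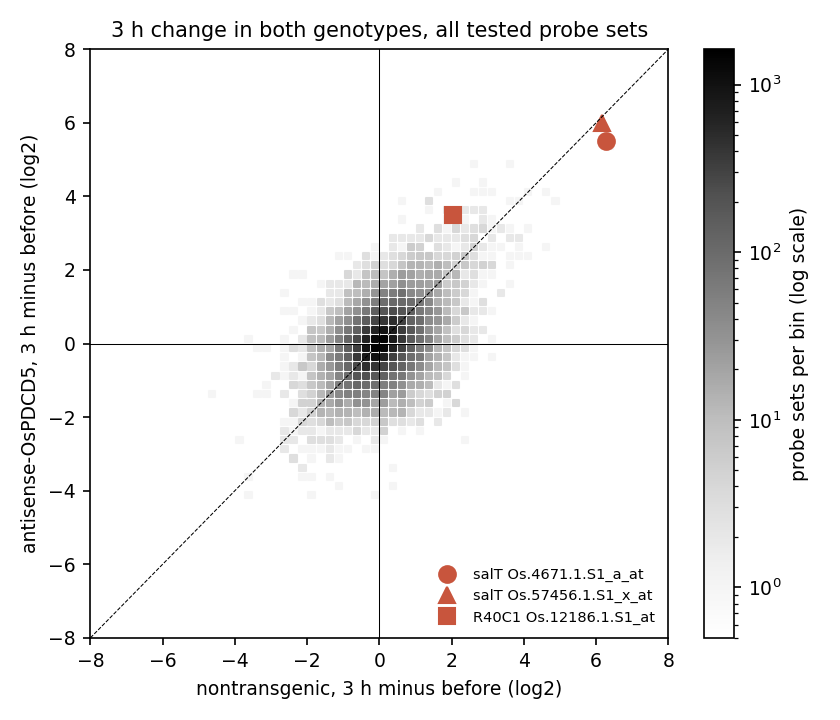
Change in log2(signal + 16) from before treatment to 3 h in nontransgenic (horizontal axis) and antisense-OsPDCD5 leaves (vertical axis) for the 28629 tested probe sets, binned at 0.25 and shaded by the number of probe sets per bin on a log scale. The salT probe sets (circle and triangle) lie alone in the upper right corner, with changes of 6.26 and 5.50 for the circle, and R40C1 (square) lies above the dashed line of equal change, at 2.05 and 3.49.

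At 20 min salT was lower than before treatment on both probe sets and in both genotypes. On the a_at set the signal before treatment was 1.25 times that at 20 min in nontransgenic leaves and 4.09 times in antisense leaves. On the x_at set the ratios were 1.19 and 2.28. The fitted changes were -0.99 ± 0.32 and -0.56 ± 0.23 and did not pass the threshold (limma adjusted p = 0.301 and 0.416), in a contrast where 0.157% of probe sets were called lower and 0.789% higher. Leaving out 1 array at a time gave -1.53 to -0.44 on the a_at set and -0.87 to -0.25 on the x_at set. The values nearest 0 came without the antisense array from before treatment (a_at) or at 20 min (x_at), and none passed (lowest adjusted p = 0.0857). The antisense value on the a_at set, -1.70 on the log2(signal + 16) scale, ranked 142nd from the lowest of 28629. A decrease of at least 2-fold on that scale was seen in 2.56% of probe sets in that pair of arrays.

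For R40C1 the nontransgenic signal was 459 before treatment, 677 at 20 min and 1945 at 3 h. Antisense leaves had 175, 128 and 2134. Both 3 h arrays were above the other 4, as for salT, a pattern shown by 12% of all probe sets tested. Before treatment and at 20 min both nontransgenic arrays were above both antisense arrays for R40C1, an order shown by 27.7% of all probe sets tested.

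The 3 h rise of R40C1 was 4.24-fold in nontransgenic and 12.2-fold in antisense leaves. Its fitted change was 2.77 ± 0.50 (limma adjusted p = 0.0291), which ranked 56th among 28629 probe sets. Taken alone, the rise ranked 237th in nontransgenic and 31st in antisense leaves. The 3 h minus 20 min change was 2.70 ± 0.50 (adjusted p = 0.0250), from a 2.87-fold rise in nontransgenic and a 16.7-fold rise in antisense leaves. The 3 h call was lost with no filter (adjusted p = 0.0522), without the variance trend (0.135), and without the nontransgenic or the antisense array from before treatment (0.103 and 0.154). The call against 20 min was lost without the trend (0.111) and without the antisense 20 min array, where the change was 1.86 (0.0635).

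At 20 min R40C1 went opposite ways, 1.48 times its earlier signal in nontransgenic leaves and 0.730 times in antisense leaves. The fitted change was 0.07 ± 0.50 (limma adjusted p = 0.972), and changes of opposite sign were found in 38.1% of all probe sets tested.

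Comparing genotypes asks whether antisense leaves held different levels of these transcripts. For salT the antisense minus nontransgenic difference on the a_at set was 0.64 before treatment, -0.78 at 20 min and -0.13 at 3 h. On the x_at set it was 0.12, -0.58 and -0.06. The fitted differences over the 3 stages were -0.09 ± 0.26 and -0.17 ± 0.19 (limma adjusted p = 0.843 and 0.566). At 3 h the antisense signal was 0.916 and 0.957 times the nontransgenic one.

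R40C1 had the wider gap between genotypes. Its nontransgenic signal was 2.62 times the antisense signal before treatment and 5.29 times at 20 min, and 0.911 times at 3 h. On the log2 scale the antisense minus nontransgenic differences were -1.31, -2.27 and 0.13. A deficit of at least 2-fold in antisense leaves was found in 8.12% of probe sets before treatment and in 7.78% at 20 min. Over all stages the fitted difference was -1.15 ± 0.41 (limma adjusted p = 0.0972), in a contrast where 10.6% of probe sets were called lower. A stage left with 1 array adds nothing to the fitted genotype difference, so leaving out either array of a stage gave the same value. The difference was -1.79 without either 3 h array, the stage where the sign was opposite. Only there, in 2 of 15 alternatives, did the difference pass the threshold. It was -0.59 without either 20 min array and -1.07 without either array from before treatment.

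**Figure D3:**
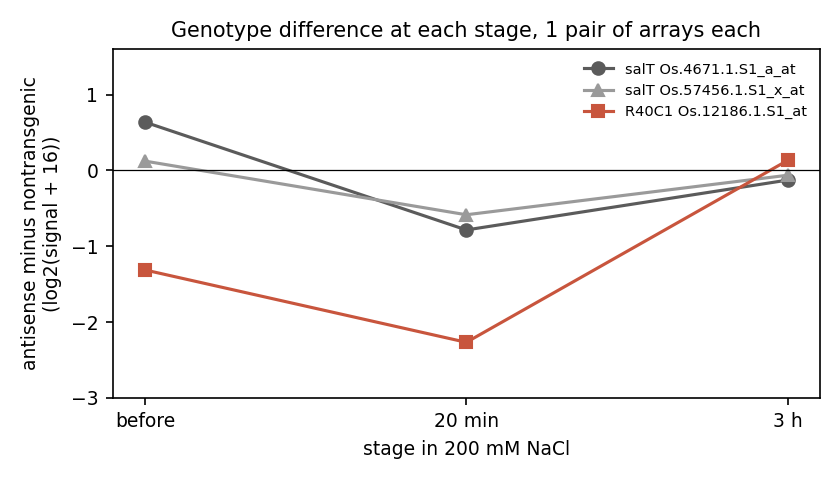
Antisense minus nontransgenic difference in log2(signal + 16) at each stage, with 1 pair of arrays per point and lines joining the stages of a probe set. R40C1 (squares) lies at -1.31 and -2.27 before treatment and at 20 min and at 0.13 at 3 h, and both salT probe sets lie between -0.78 and 0.64.

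The size of the salt change was then set side by side for the 2 genotypes, a difference that takes every residual degree of freedom and could not be tested. The 3 h change of R40C1 was larger in antisense leaves by 1.45 on the log2 scale, and a difference of at least 1 in that direction was shown by 5.4% of probe sets. For salT it was smaller in antisense leaves, at -0.76 on the a_at set and -0.19 on the x_at set (antisense minus nontransgenic).

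Placing the 6 arrays in order shows which levels lie close together. The moderated residual SD of a single array in the limma fit was 0.32 (a_at set), 0.23 (x_at set) and 0.50 (R40C1), in log2 units. Limma forms this SD from departures from additivity of the probe set and of other probe sets of similar signal. It is thus not the probe set's own residual SD. The departures include the genotype differences in salt change, and the SD is no spread between replicates. Gaps between 2 arrays are set beside this SD of 1 array as a description of size only. On both salT probe sets the order from lowest was antisense 20 min, nontransgenic 20 min, nontransgenic before, antisense before, antisense 3 h and nontransgenic 3 h. The 3 h arrays differed by 0.13 and 0.06 and the nontransgenic arrays before and at 20 min by 0.28 and 0.20, all below that SD. On the x_at set the 2 arrays from before treatment, 0.12 apart, were also within it. For R40C1 the order was antisense 20 min, antisense before, nontransgenic before, nontransgenic 20 min, nontransgenic 3 h and antisense 3 h. There the antisense arrays before and at 20 min (0.41) and the 3 h arrays (0.13) lay within the SD.

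Among relatives by name, the gene table held 5 entries matching the lectin names searched, and 4 had a probe set. Besides salT and R40C1 these were GNA1 and MRL7, and the R40 gene osr40g3 had none. GNA1 encodes an acetyltransferase of amino sugar metabolism, so it shares only a symbol with a lectin, and MRL7 matched by its letters alone. GNA1 had signals of 1467 to 1585 over the 6 arrays and MRL7 of 256 to 585. Of the 4 genes, salT and R40C1 were called higher at 3 h and neither GNA1 (0.05) nor MRL7 (0.57) was called. Of all probe sets tested, 3.44% were called higher and 2.58% lower at 3 h. The gene table carries no protein descriptions, so other jacalin or R40 family genes were not analysed here.

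Abscisic acid and drought response genes, the dehydrin and LEA genes that accumulate in drying tissue, were read beside the lectins. All 8 measured genes were higher at 3 h than before in both genotypes, as were 32.5% of all probe sets tested. The smallest rise was 1.02-fold, for rab25 in nontransgenic leaves (301 before and 307 at 3 h). In antisense leaves rab25 had 23.7 and 105. Of the 8, 4 were called higher, 0 lower and 4 neither, where 3.44% of all probe sets were called higher and 2.58% lower. The median change was 1.95 against 0.01 over all probe sets. The largest were RAB16C (3.52), RAB16B (2.75), RAB16D (2.63, not called) and Emp1 (2.20). Each was below the salT change, which was the largest of all probe sets tested. The dehydrin gene RAB16C had signals of 421 before and 2943 at 3 h in nontransgenic leaves, and 469 and 9404 in antisense leaves. The embryo LEA gene Emp1 had 1040 and 5583 in nontransgenic leaves, and 539 and 2205 in antisense leaves. The 3 h change was larger in antisense leaves for 5 of the 8 genes, as for R40C1, and smaller for 3, as for salT. It was larger in antisense leaves for 48.3% of all probe sets tested.

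The same list parted at 20 min. In antisense leaves 8 of 8 genes were lower than before treatment, with a median change of -1.13. In that pair of arrays 50.8% of all probe sets were lower. In nontransgenic leaves 4 of 8 were lower, against 47.4% of all probe sets, and the median change of the 8 was 0.24. None passed the threshold at 20 min in the limma fit (0 of 8, lowest adjusted p = 0.0970 for RAB16B). The lower antisense 20 min signal of salT and R40C1 thus came with lower signals of these genes on the same array, and their part in the result was not tested.

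**Figure D4:**
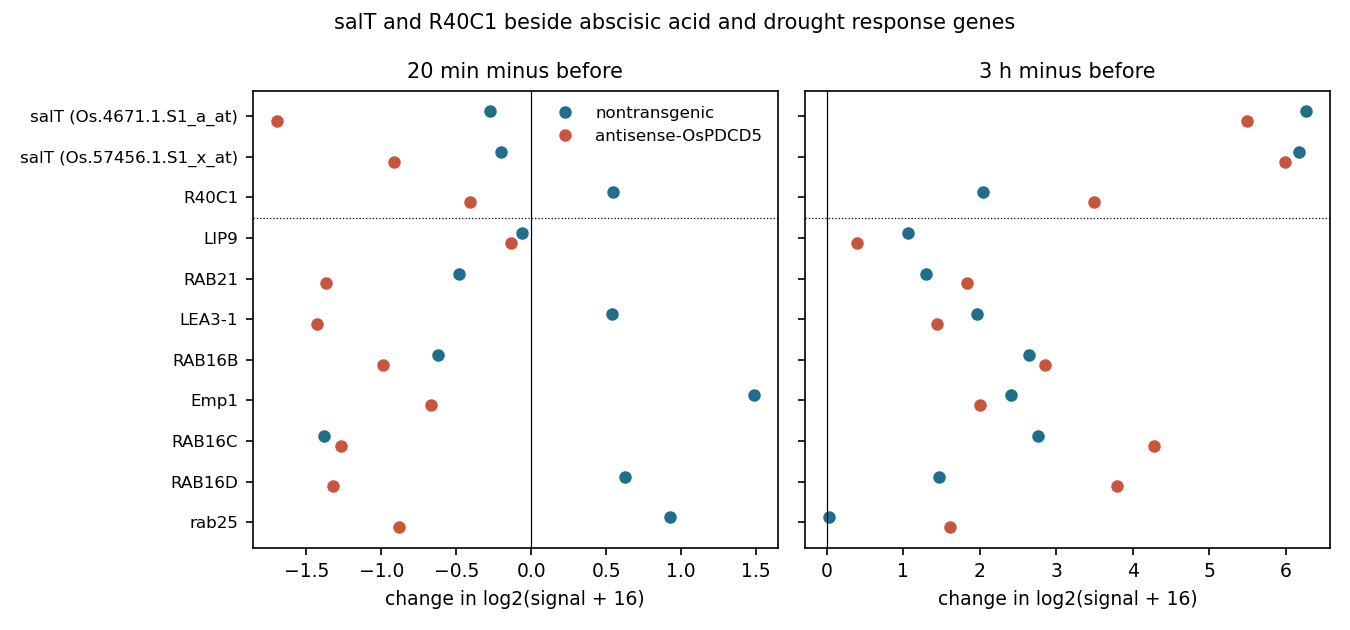
Change in log2(signal + 16) from before treatment to 20 min (left) and 3 h (right) for both salT probe sets, R40C1 and the 8 abscisic acid and drought response genes below the dotted line, with 1 pair of arrays per point. At 20 min every antisense point is below 0 while nontransgenic points lie on both sides, and at 3 h all points are above 0 with salT farthest out.

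Signalling genes of the pathway had a smaller median change. Of 14 measured genes, 13 passed the filter, and at 3 h 1 was called higher, 0 lower and 12 neither, where 3.44% of all probe sets were called higher. The median change was 0.25. The called gene was the kinase gene SAPK6, which rose by 1.12 ± 0.15 (limma adjusted p = 0.0127). Its signal was 1190 before and 2809 at 3 h in nontransgenic leaves, and 871 and 1776 in antisense leaves. Next were the kinase gene SAPK7 (0.97), BZIP23, a bZIP transcription factor of abscisic acid signalling (0.66), and SAPK3 (0.47), none of which passed. TRAB1, another bZIP factor, named here outside the 4 largest 3 h changes, had signals of 2228 to 3530 over the 6 arrays. It rose by 0.32 at 3 h (not called) and by 0.57 ± 0.12 against 20 min (limma adjusted p = 0.0370). For 3 h minus 20 min 2 of 13 were called higher and 1 lower. Of all 28629 probe sets tested, 4.45% were called higher and 1210 were called lower. At 20 min 1 of 13 was called higher, where 0.789% of all probe sets were. This was SAPK2, named here after its value was seen. It rose by 1.15 ± 0.16 (limma adjusted p = 0.0363) and stood at 0.16 at 3 h, a course opposite in order to that of salT.

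Named genes with the most similar course were found by Pearson r of log2(signal + 16) over the 6 arrays. Since these arrays are single samples of 3 stages, r mainly follows which arrays stood high, and it is given as a description. For salT the 5 closest of 1180 named probe sets were GLO3, a glycolate oxidase gene (r = 0.995), IVD, for isovaleryl-CoA dehydrogenase (0.992), the peroxygenase gene PXG (0.988), BBD1 (0.986) and ELA3 (0.983). All 5 rose at 3 h, from 0.85 for IVD to 2.53 for PXG, a direction that their choice by a high r with salT brings about. PXG had signals of 551 before and 3855 at 3 h in nontransgenic leaves, and 936 and 4642 in antisense leaves.

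For R40C1 the closest were TIP4-1, a tonoplast aquaporin gene (r = 0.989), PM1 (0.988), the sucrose synthase gene SUS4 (0.987), the beta-glucosidase gene BGLU26 (0.978) and the expansin gene EXP10 (0.978). TIP4-1, the closest of them, had signals of 1864 before, 1782 at 20 min and 3869 at 3 h in nontransgenic leaves. In antisense leaves it had 806, 797 and 4418. PM1 shared the opposite signs of the R40C1 change at 20 min, with 0.95 in nontransgenic and -0.26 in antisense leaves. EXP10 did so too, with 0.38 and -0.14, while TIP4-1, SUS4 and BGLU26 did not. Their choice by a high r with R40C1 favours a like course, and 38.1% of all probe sets tested had opposite signs. Without the need for a name, 28 of 7509 probe sets of 1 gene were as close to salT as ELA3. For R40C1, 24 of 7510 were as close as EXP10. The 2 lectin genes themselves correlated at r = 0.865 on the a_at set. An r of at least 0.9 was reached by 356 of the 7509 probe sets with salT and by 344 of the 7510 with R40C1.

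Genes next to the lectin genes in the reference table had small changes at 3 h. Of the 4 nearest protein-coding neighbours of salT, 2 on each side, 3 passed the filter, with 3 h changes of -0.28 to 0.01. The 4 neighbours of R40C1 had changes of -0.18 to 0.46. None of these 7 was called at 3 h in the limma fit (0 of 7, lowest adjusted p = 0.186), where 3.44% of all probe sets were called higher and 2.58% lower. For 3 h minus 20 min 1 of the 7 was called, the R40C1 neighbour LOC4332717, which rose by 0.84 ± 0.17 (limma adjusted p = 0.0341), where 4.45% of all probe sets were called higher. The neighbours were added after the values of the lectin genes were seen.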

How the data were processed

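Leaf RNA was amplified with a 3-prime kit, labelled with biotin and hybridised to 6 arrays, per the labels' protocols. MAS5 signals on a log2 scale were deposited by the authors, the tool being named in the submitters' processing notes. The sources used here give neither its version nor its scaling target, and detection calls were not used. On every array the trimmed mean of the linear signal was 500.1, so a common scaling had been applied. The number of arrays limits the precision of every value.

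The platform annotation gave 1 gene for 22436 of 57258 rice probe sets, all found in the RefSeq gene table of rice assembly ASM3414082v1, used for names and neighbours only. Signals were made linear, 16 was added and log2 was taken. Probe sets with a mean below the median (5.535) were dropped and 28629 remained. Limma 3.58.1 in R 4.3.3 (lmFit, eBayes with intensity trend) fitted genotype and stage as additive terms over all 6 arrays, with Benjamini-Hochberg adjustment over all 28629 and a threshold of 0.05. It left 2 residual degrees of freedom and a prior of 4.52. The 20 min and 3 h contrasts share the arrays from before treatment. Nothing in the labels gives replicate cultures within a group, so p-values measure only departures from additivity. The fit was tested on simulated data.

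Members and gene lists were chosen with earlier results of these data known, so p-values of the members are not independent support. Named were all member probe sets, up to 4 genes of each list by 3 h change, lectin-named genes, and the 5 named probe sets with the highest r and a range of at least 1. SAPK2, TRAB1 and rab25 were named outside these rules. A list took the probe set with the highest mean for each gene. Alternatives changed the offset, filter, scaling, variance model or left out an array. Promoter motifs were not searched and sequences were not used here.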

Additional observations from a re-analysis of the deposited data

Results flagged for a closer look

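Several differences between genotypes or stages went in opposite directions, each resting on single arrays and none tested. The 20 min change of R40C1 was upward in nontransgenic and downward in antisense leaves, a difference in change of -0.95 (log2, antisense minus nontransgenic). Its antisense minus nontransgenic difference was below 0 before treatment and at 20 min and above 0 at 3 h, so it moved by 1.45 from before treatment to 3 h and by 2.40 from 20 min to 3 h.

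For salT, read by an a_at and an x_at probe set, the antisense minus nontransgenic difference was above 0 before treatment and below 0 at both later stages. On the a_at set it moved by -1.42 to 20 min and by -0.76 to 3 h. On the x_at set the same shifts were -0.71 and -0.19.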

How the results depend on the processing

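Across 15 alternatives (14 for the x_at probe set of salT, which did not pass the filter at the 75th percentile) the 3 h rises of salT and R40C1 kept their direction. The salT rise lost its call only without the variance trend, at 5.88 and 6.08 (adjusted p = 0.0609). R40C1 at 3 h stayed at 2.77 but lost its call with no filter (adjusted p = 0.0522) or without the trend (0.135), and against 20 min at 2.70 without the trend (0.111).

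Leaving out 1 array each time, R40C1 ranged from 1.81 to 3.73 at 3 h (adjusted p from 0.00316 to 0.154), from 1.74 to 3.66 against 20 min (0.00269 to 0.0635), from -0.77 to 0.91 at 20 min and from -1.79 to -0.59 between genotypes. Its 20 min change turned negative without the nontransgenic 20 min array (-0.77) or the antisense array from before treatment (-0.05). The R40C1 genotype difference passed the threshold only without either 3 h array. The salT genotype difference turned positive without either 20 min array, at 0.26 and 0.031 on the a_at and x_at sets, and otherwise reached -0.46 and -0.32. The difference between genotypes in the 20 min change of salT depended on the offset: with 1 it was -1.69 and -0.92, and with 64 it was -0.97 and -0.41.

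Counts of changed probe sets at 20 min were 271, and 152 with no filter, 150 at the 75th percentile, 0 without the trend (3103 at an unadjusted p under 0.05) and 27 to 761 with 1 array left out. At 3 h they were 1722, and 992 with no filter, 0 without the trend (5536 unadjusted) and 372 to 2130. For 3 h minus 20 min they were 2483, and 1524 with no filter, 100 without the trend and 795 to 2895. For genotype they were 5889, and 3151 without the trend and 2999 to 6082. Scaling to the spike-in controls moved the share higher among genotype calls from 48.3% to 35.6%. At 3 h that share was 57.1%, and 47.9% with spike-in scaling and 48.4% with equal 75th percentiles. The additive fit itself sets genotypes against each other within stages and stages within genotypes. With 1 array per group, no replicate numbers were there to pair samples further.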
